A study of Mus musculus with 10 samples.

Results

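Malat1-poor slice cells were cells of cultured mouse brain slices whose RNA held almost no Malat1, a noncoding RNA of the nucleus that is usually among the most abundant transcripts of a cell. They were chosen by measured values: at most 5% of the unique molecular identifiers (UMIs, 1 per captured transcript) from mitochondrial genes, at least 400 genes, at most 30000 UMIs, less than 0.2% of UMIs from Malat1, and less than 1% from S100a8 plus S100a9, the calprotectin genes of neutrophils. Of 6634 slice cells within the limits on quality, 1740 met the rule, out of 19059 such cells in all 10 libraries. They were described against the 4067 cells of the same 6 slice libraries with at least 1% Malat1, here called Malat1-rich. A further 826 slice cells lay between the limits, and 1 slice cell under 0.2% was left out for its S100a8 and S100a9.

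Malat1 and its genomic neighbour Neat1 are transcribed in the nucleus and stay there. Malat1 gathers in nuclear speckles, where splicing factors are stored, and Neat1 builds the paraspeckles beside them, so that both mark nuclear RNA in a cell suspension. Metallothioneins are small cysteine-rich proteins that bind zinc and copper, and their genes respond to metal and oxidative stress.

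The study profiled microglia of C57BL/6 mice in 5 groups of 2 libraries: slices kept for 1 day, for 1 week or for 3 weeks, an in vitro mixed glial culture kept for 3 weeks, and adult brain taken without culture. The slices came from neonatal pups, several slices could be pooled, and the labels name no drug or transgene for these groups. Per the paper, the slice medium received human PDGF, a growth factor, at each change. Live cells that were CD11b high and CD45 intermediate were sorted and captured with the 10X Genomics 3' v2 kit, which primes cDNA at the poly(A) tail. Nothing in the labels says whether the 2 libraries of a group came from separate animals, and the paper calls them independent samples. P-values therefore measure the spread between these libraries only. The slice libraries held 385373 to 22332658 UMIs in kept cells, and no pair of libraries shared more than 21 cell barcodes.

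The Malat1 share fell into 2 ranges in each 1-day and 3-week library. Among Malat1-poor cells the median share of UMIs from Malat1 was 0.0237% and 0.0767% in the 1-day libraries (replicates 1 and 2), 0.0475% and 0 in the 1-week libraries, and 0.0155% and 0.0171% in the 3-week libraries. Among Malat1-rich cells it was between 1.66% and 2.67%. No Malat1 molecule was seen in 361 of the 905 Malat1-poor cells of slice 3 weeks replicate 2 and in 109 of the 284 of slice 3 weeks replicate 1, against 7 of the 353 in slice 1 day replicate 2. In the 1-week libraries few cells lay near 0.2% as well, but more of the cells fell between the limits, 63 of the 148 cells in replicate 1 and 25 of the 61 in replicate 2.

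**Figure D1:**
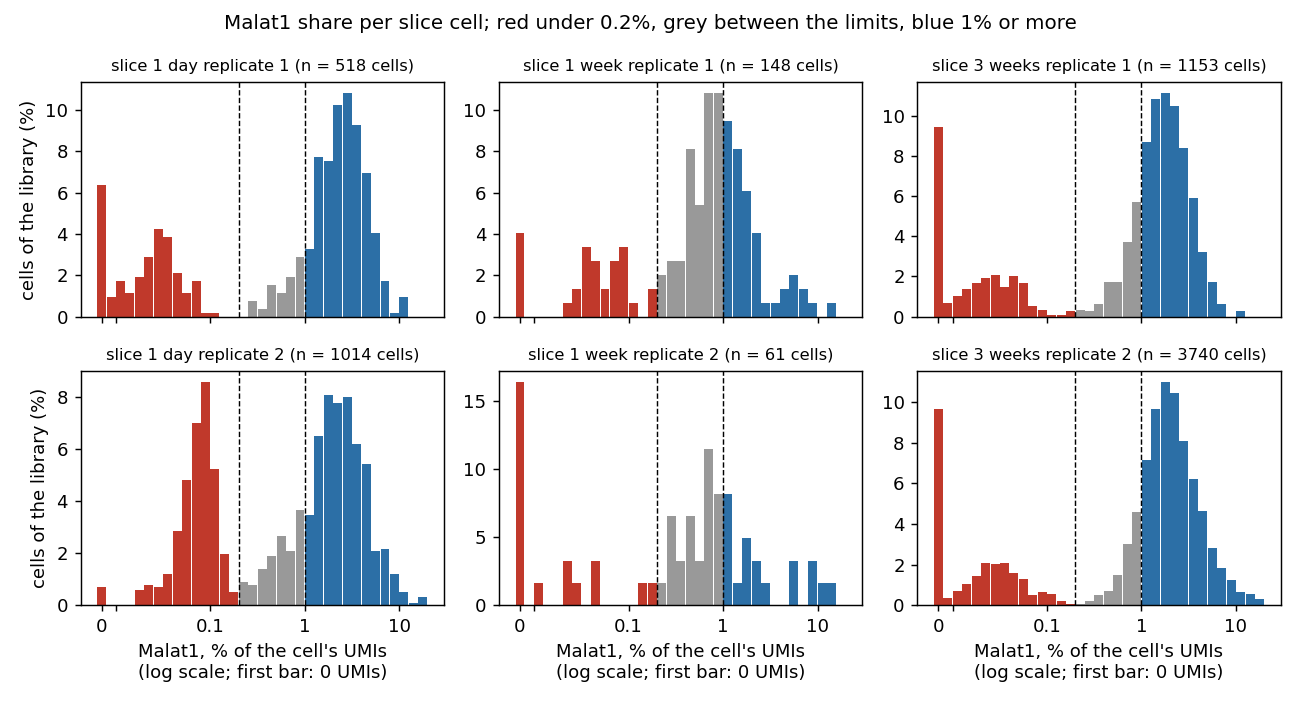
Histograms of the Malat1 share of each slice cell, 1 panel per library, with the share in percent of UMIs on a log scale on the x axis (the first bar holds cells with 0 Malat1 UMIs) and the percent of the library's cells on the y axis. Red bars are under 0.2%, grey bars lie between the dashed limits and blue bars are at 1% or more; the 1-day and 3-week libraries show a low and a high range, while in the 1-week libraries of 148 and 61 cells many cells lie between.

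Malat1-poor cells made up 28.6% (exact binomial 95% interval 24.7 to 32.7) and 34.8% (31.9 to 37.8) of the 1-day libraries. The share was 21.6% (15.3 to 29.1) and 29.5% (18.5 to 42.6) at 1 week and 24.6% (22.2 to 27.2) and 24.2% (22.8 to 25.6) at 3 weeks. The intervals cover counting error only. Both 1-day libraries lay above both 3-week libraries and the 1-week libraries overlapped with the 1-day range, with means of 31.7% ± 4.41, 25.6% ± 5.58 and 24.4% ± 0.304 (SD, n = 2 libraries each). The same limits found 51 and 109 cells in the in vitro libraries, a share of 2.11% and 4.06%. In the adult libraries they found 7 of 3799 cells (0.184%) and 0 of 3527, which at a limit of 3 counts allows a share of up to 0.0851%. These shares describe the rule's own values and were not tested.

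Few cells lay near the limit. Among slice cells under the S100 limit, 20 had a Malat1 share of 0.15 to 0.2% and 16 a share of 0.2 to 0.25%. Just inside the limit Neat1 stood at 37.7 CPM (molecules of a gene scaled to a fixed total of molecules) and just outside at 67.3 CPM, while Mt1 stood at 3924 and 2043 CPM and the nuclear transcript Rsrp1 at 84.9 and 224.5 CPM. With the cells under the S100 limit pooled over the 6 libraries, which differ in their levels, Neat1 went from 15.9 CPM in cells with less than 0.1% Malat1 to 98.4 CPM in those with 0.5 to 1% and 573 CPM in those with more than 4%. Mt1 took another course, with 2306 CPM under 0.1%, 632 CPM at 1 to 2% and 1670 CPM above 4%.

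UMI and gene counts are given without a test, since the rule limits both. The median UMI count of Malat1-poor cells per library ranged from 3520 to 7863, against 2882 to 8387 in Malat1-rich cells, and was lower in 4 of 6 libraries (mean difference −605 ± 1141 UMIs, SD over 6 libraries). The median number of genes was lower in 6 of 6 libraries, by a mean of 455 ± 263 genes. With each cell thinned to 1500 UMIs it was 724.7 in Malat1-poor and 806.3 in Malat1-rich cells, again lower in 6 of 6. Ribosomal protein genes took 21.2% of the UMIs against 15.8%, higher in 6 of 6 libraries. That difference had an exact permutation p of 0.03125 (sign flips, two-sided), the smallest that 6 pairs allow, and an adjusted p of 0.0438 over 7 measures. The mitochondrial share, capped at 5% by the rule, was 1.58% and 1.49% on average and is given without a test, since the rule used it and the cap removed more Malat1-poor than other barcodes.

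Cells between the limits were larger than either class, with median UMI counts per library of 8938 to 11970. Doublets were not called, and their part in any of these values was not tested. Of the 202 slice barcodes that the limits on quality removed, 120 (59.4%) also had a Malat1 share under 0.2%, among them 113 of the 186 barcodes over the mitochondrial limit.

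Malat1-poor cells resembled each other in genes that the rule did not read. In principal components computed within a library without Malat1, S100a8, S100a9 and mitochondrial genes, 86.0% and 89.2% of the 20 nearest neighbours of Malat1-poor cells were Malat1-poor in the 1-day libraries. The value was 53.4% in slice 1 week replicate 1, and 80.9% and 92.8% in the 3-week libraries; slice 1 week replicate 2, with 61 cells, was not used. Around Malat1-rich cells the Malat1-poor neighbours were 0.927% to 7.08%. With all cells thinned to 1500 UMIs the shares were 62.0% to 84.1% around Malat1-poor and 3.65% to 13.4% around Malat1-rich cells.

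The sorted cell type was checked against 13 microglia genes, and all 13 were detected in both classes of every slice library. The complement genes C1qa, C1qb and C1qc were at 2722 to 13720 CPM in Malat1-poor cells and 2304 to 11430 CPM in Malat1-rich cells. Of the 13, none was called higher in Malat1-poor cells, while Csf1r, Cx3cr1, Selplg and Tmem119 were called lower, against 22.7% of all tested genes. Itgam and Ptprc, which encode the CD11b and CD45 of the sort, were lower as well, by −0.91 ± 0.15 and −0.96 ± 0.17 on the log2 scale (SE; edgeR quasi-likelihood adjusted p = 6.28e-05 and 0.000138), and were detected in both classes of every library.

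Markers of other cells differed by library. Neutrophil genes summed to 67.5 to 98.2 CPM in the 3-week libraries and reached of 6220 CPM over 20 genes in Malat1-rich cells of the early libraries, where the limit on S100a8 and S100a9 had not been applied. Of the Malat1-rich cells, 64, 63, 10 and 1 in the 1-day and 1-week libraries had 1% or more of these 2 transcripts, and none in the 3-week libraries. At least 2 neutrophil genes were seen in 98.3% of Malat1-poor and 99.4% of Malat1-rich cells of slice 1 day replicate 2 and in 100% of both classes in slice 1 week replicate 1. Haemoglobin and other red cell genes summed to 8190 CPM in Malat1-poor and 2032 CPM in Malat1-rich cells of slice 1 day replicate 1 and to at most 2.52 CPM elsewhere.

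Ttr, the transthyretin gene of the choroid plexus, was named after its values were seen. It stood at 231.6, 419.4 and 1499 CPM in the Malat1-poor sums of slice 1 day replicate 2, slice 3 weeks replicate 1 and slice 3 weeks replicate 2, against 21.1, 14.0 and 67.1 CPM in the Malat1-rich sums. Single cells carried it: the 5 highest Malat1-poor cells held 85.4%, 96.3% and 87.1% of those Ttr molecules. In the Malat1-rich sums of the same libraries the 5 highest cells held 10.3%, 10.1% and 81.5%. Lymphocyte, astrocyte and endothelial genes summed to at most 62.4 CPM in Malat1-poor cells. Oligodendrocyte genes reached 470.5 CPM in Malat1-poor and 161 CPM in Malat1-rich cells, border macrophage genes 552 and 759 CPM, and monocyte genes 435 and 634 CPM. The part of other cell types in the results was not tested beyond the alternatives given.

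The transcript classes were compared in sums of counts per library and class, leaving out Malat1, S100a8 and S100a9. Across the 6 libraries, 8329 genes were tested, and a gene was called at an adjusted p under 0.05 with a fold change over 1.5. In Malat1-poor cells 1535 genes (18.4%) were higher and 1888 (22.7%) lower, with a median log2 difference of −0.0014 over all genes. Scaling to the library totals alone, without TMM factors, moved that median to −0.49 and gave 222 higher and 3674 lower, and DESeq2 moved it to −0.17 with 916 higher and 2226 lower. Differences are therefore relative to the other genes. With both classes drawn to the same UMI counts per cell, which left out slice 1 week replicate 2, 1510 were higher and 1764 lower. With cells that showed at least 2 markers of neutrophils, monocytes, red cells or platelets left out, 1127 were higher and 1779 lower of 7280 tested, in 4 libraries only, since slice 1 day replicate 2 and slice 1 week replicate 1 kept too few cells. Without slice 1 day replicate 2 the higher calls were 931 and the lower calls 1938. All 6 Malat1-poor sums lay above all 6 Malat1-rich sums for 426 genes (5.11%) and below them for 490 (5.88%).

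Neat1 was lower in every library. Its level in Malat1-poor cells was 18.4 and 37.2 CPM at 1 day, 7.80 and 38.5 CPM at 1 week and 12.98 and 12.5 CPM at 3 weeks. In Malat1-rich cells of the same libraries it was 441 and 325 CPM, 239 and 250 CPM, and 170 and 161 CPM. The 2 classes did not overlap. The log2 difference was −3.67, given without a test since Neat1, Mt1 and Mt2 were chosen with their values known, and −2.65 when set against the cells between the limits. Neat1 lies at chr19:5824708-5845478 and Malat1 at chr19:5795690-5802672, both on the minus strand of GRCm38.

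Of 21 listed nuclear long noncoding RNAs, Neat1 included, 6 passed the filter on low counts, 4 of them were lower and none was higher. Besides Neat1 the lower ones were Xist, Kcnq1ot1 and Mir142hg. Of all 78 annotated long noncoding RNAs tested 34 were lower and 9 higher, and of all genes 22.7% and 18.4%. Xist, which coats the inactive X chromosome, was at 22.7, 109 and 23.8 CPM in Malat1-poor and at 929.5, 1255 and 1572 CPM in Malat1-rich cells of slice 1 day replicate 1, slice 1 week replicate 1 and slice 3 weeks replicate 2. It was at 4.54 CPM or less in both classes of the other 3 libraries. The 2 slice libraries of each culture time thus differed in Xist, and the sex of the animals was not tested. Kcnq1ot1, the antisense transcript that silences an imprinted cluster, fell by 4.65 on the log2 scale (SE 0.34, edgeR quasi-likelihood adjusted p = 2.71e-08), and Mir142hg, the host transcript of a blood cell microRNA, by 2.96 (SE 0.31, adjusted p = 8.92e-07). The listed nuclear noncoding RNAs other than Neat1 took 0.0283% of UMIs in Malat1-poor and 0.204% in Malat1-rich cells, lower in 6 of 6 libraries (exact permutation p = 0.03125, adjusted p = 0.0438).

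Many messenger RNAs of splicing factors and speckle proteins are known to keep introns and wait in the nucleus. Of 29 listed messages of such proteins 23 fell, against 22.7% lower and 18.4% higher among all genes. Only Srsf3, encoding a small SR protein of splicing, was called higher among the 29, at 0.66 ± 0.13. This call was not made with library totals alone or DESeq2. The median was −1.32. Rsrp1, which encodes an arginine and serine rich protein, was at 46.4, 58.1, 70.2, 77.0, 129.8 and 67.5 CPM in Malat1-poor cells of the 6 libraries, from the earliest to the latest culture time, and at 490.6, 315.2, 822, 695.7, 675.8 and 650.1 CPM in Malat1-rich cells. Every Malat1-poor value lay below every Malat1-rich one, and the difference was −2.92 ± 0.16 (edgeR quasi-likelihood adjusted p = 2.21e-09).

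Ogt, which encodes the enzyme that adds O-linked N-acetylglucosamine to proteins and is a textbook case of a detained intron, fell by 4.08 (SE 0.25, edgeR quasi-likelihood adjusted p = 4.03e-09), from 123 to 239 CPM in Malat1-rich cells to at most 14.4 CPM. Pnisr (−2.80), Ccnl1 (−2.53), a cyclin of the splicing machinery, and the kinase gene Clk1 (−2.17) followed. Srsf2, Srsf6, Srsf7, Ddx5 and Hnrnpu were not called, with values between −0.27 and 0.55. As a share of UMIs the 29 messages took 0.245% in Malat1-poor and 0.642% in Malat1-rich cells, lower in 6 of 6 libraries (exact permutation p = 0.03125, adjusted p = 0.0438).

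Large falls were also seen in genes that belonged to no list. Ccnt2, a cyclin of transcription elongation, fell by 4.12 (SE 0.20, edgeR quasi-likelihood adjusted p = 7.15e-10), Stx16, a syntaxin of membrane traffic, by 3.60, and Alkbh1, a demethylase gene, by 3.49. Arhgap31 fell by 3.40 and Rbm4b fell by 3.29, and the differences of PISD and Krit1 were −3.14 and −3.02.

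**Figure D2:**
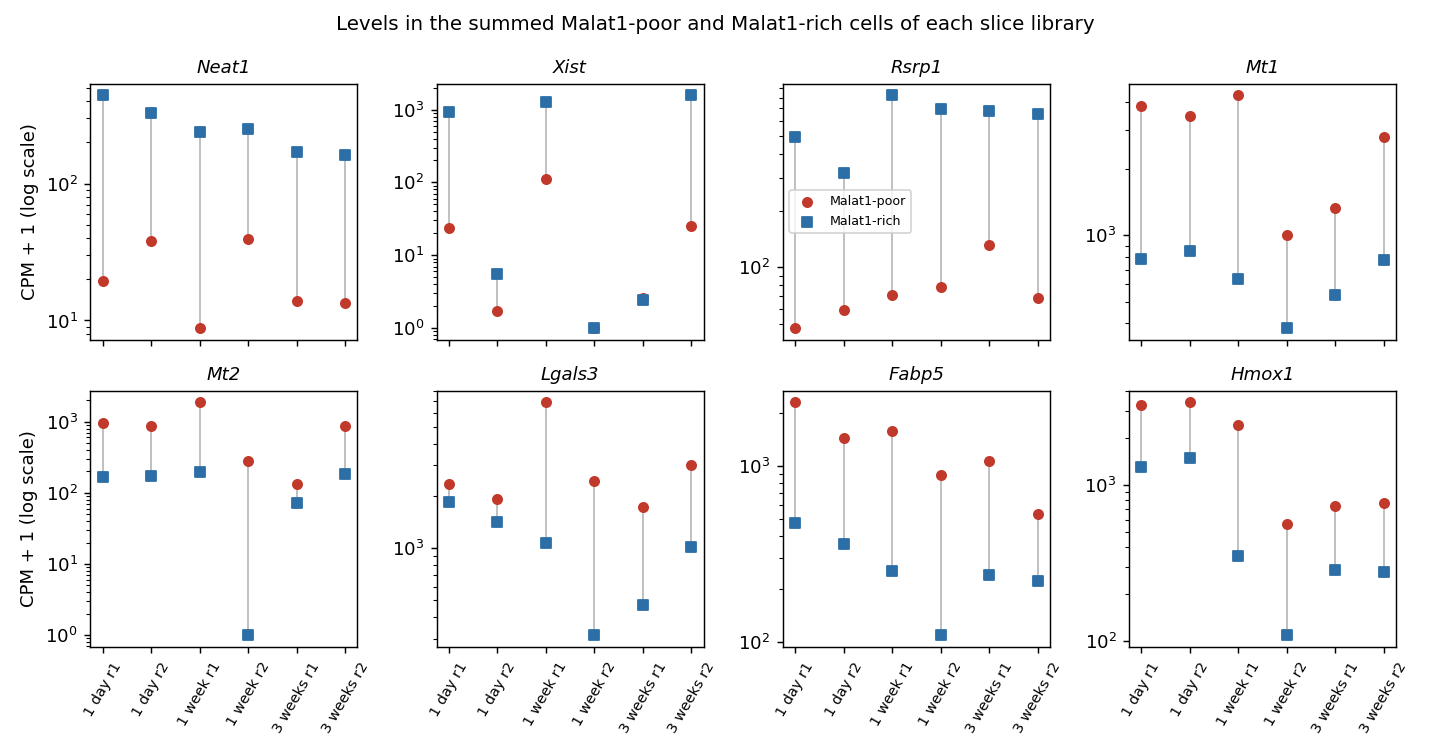
Levels of 8 genes in the sums over Malat1-poor (red circles) and Malat1-rich cells (blue squares) of each slice library, as CPM plus 1 on a log scale that differs between panels, with a grey line joining the 2 classes of a library. Neat1 and Rsrp1 are lower and Mt1 and Fabp5 higher in Malat1-poor cells of every library without overlap, while Xist is near 0 in 3 libraries.

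The metallothionein genes Mt1 and Mt2 were higher in Malat1-poor cells of every library. Mt1 stood at 3849 and 3449 CPM at 1 day, 4291 and 1001 CPM at 1 week and 1322 and 2789 CPM at 3 weeks, against 784 and 846, 634 and 380.5, and 535 and 777 CPM in Malat1-rich cells. The classes did not overlap for Mt1. Mt2 stood at 953 and 865 CPM, 1872 and 282 CPM, and 132 and 859 CPM, against 165 and 172, 194 and 0, and 71.6 and 183 CPM. The 0 came from 18 cells of slice 1 week replicate 2, where a count of 0 allows up to 32.6 CPM. The log2 differences were 1.97 for Mt1 and 2.30 for Mt2, or 1.66 and 2.82 against the cells between the limits.

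The other 3 genes of zinc handling that could be tested were not called higher. Slc30a1, encoding a zinc exporter, fell by 1.56 (SE 0.39, edgeR quasi-likelihood adjusted p = 0.00267) and Slc39a10, a zinc importer gene, by 0.80 (SE 0.27, adjusted p = 0.0223). Mtf1, which encodes the factor that senses zinc and drives metallothionein genes, was at −0.40 and was not called. Mt1 and Mt2 lie next to each other on chromosome 8, and their promoters are shown because the pair moved together. Each sequence runs from 250 bases before to 50 bases after the start given by RefSeq on the plus strand of GRCm38.p6, with capitals marking TGCNCNC, the core of the metal response element, on either strand.
Mt1, chr8:94178839-94179138: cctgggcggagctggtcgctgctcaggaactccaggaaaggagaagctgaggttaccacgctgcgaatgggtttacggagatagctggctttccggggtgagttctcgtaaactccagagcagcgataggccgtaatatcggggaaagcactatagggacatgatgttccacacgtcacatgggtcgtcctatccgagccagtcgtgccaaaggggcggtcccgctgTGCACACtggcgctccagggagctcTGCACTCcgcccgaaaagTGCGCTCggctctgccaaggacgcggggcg
Mt2, chr8:94172368-94172667: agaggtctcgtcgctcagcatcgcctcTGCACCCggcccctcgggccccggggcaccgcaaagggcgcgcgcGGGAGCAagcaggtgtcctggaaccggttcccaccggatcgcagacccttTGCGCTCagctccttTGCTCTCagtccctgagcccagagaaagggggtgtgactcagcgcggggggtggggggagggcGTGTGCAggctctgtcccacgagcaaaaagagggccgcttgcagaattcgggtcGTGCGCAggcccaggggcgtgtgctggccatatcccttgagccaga
The Mt1 promoter held 3 such matches and the Mt2 promoter 6, of which 3 were on the plus strand. At least 1 match was present in 51.0% of 32851 mouse promoters of the same length, at least 3 in 7.10% and at least 6 in 0.225%. A match says only that these letters are in the window.

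Among 11 tested genes of alternative activation and polyamine synthesis, Srm and Sms, which encode the spermidine and spermine synthases, rose by 0.80 ± 0.16 and 0.83 ± 0.17, and Oat, a mitochondrial aminotransferase gene, by 0.76. The amino acid transporter gene Slc7a1 fell by 1.05, and the mannose receptor gene Mrc1 was at −0.42 and not called. The median of this list was 0.11. It was −0.40 with library totals alone and −0.013 with DESeq2, where all genes had medians of −0.49 and −0.17.

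Genes of glycolysis and the hypoxia response rose in 16 of 29 cases and fell in 1, against 18.4% and 22.7% of all genes. Their median of 0.73 was 0.25 with library totals alone and 0.70 with DESeq2, where all genes had −0.49 and −0.17. With library totals alone 7 of the 29 rose and 6 fell, against 222 and 3674 of 8329 genes. Gapdh, a glycolytic enzyme gene, stood at 2786 to 6296 CPM in Malat1-poor and at 1000 to 2367 CPM in Malat1-rich cells and rose by 1.31 ± 0.14 (edgeR quasi-likelihood adjusted p = 1.05e-06). Mif, a cytokine gene that hypoxia also induces, rose by 1.54 ± 0.14 (edgeR quasi-likelihood adjusted p = 3.62e-07), Pgk1 by 1.22 ± 0.18 and Pgam1 by 1.22 ± 0.14. Of the hypoxia targets outside glycolysis, Bnip3 rose by 1.15 and Egln3 by 1.08, whereas Vegfa was at −0.51 and Slc2a1 at 0.07, neither called. Hk2, which encodes hexokinase 2, was the gene that fell, at −0.82.

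Hmox1, encoding the heme oxygenase that frees iron from heme, rose by 1.62 ± 0.17 (edgeR quasi-likelihood adjusted p = 1.08e-06), with 3243 and 3391 CPM in the 1-day Malat1-poor sums and 565 to 2426 CPM in the later ones. The ferritin genes Ftl1 and Fth1 rose by 1.19 and 1.04. Of the 19 antioxidant genes tested 6 rose and 3 fell, against 18.4% higher and 22.7% lower among all genes, and the falls were Mafg, Gclc and Osgin1. With library totals alone the median of that list, 0.23, was −0.26, against −0.49 for all genes. There 2 of the 19 rose and 3 fell, against 222 and 3674 of 8329 genes.

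Fabp5, a fatty acid binding protein gene, rose by 2.11 ± 0.16 (edgeR quasi-likelihood adjusted p = 3.65e-08). It stood at 2288 and 1437 CPM, 1576 and 886 CPM, and 1069 and 533 CPM in Malat1-poor cells, against 471 and 360, 251 and 109, and 239 and 222 CPM in Malat1-rich cells, without overlap. Fabp5 belongs to a list of genes of damage-associated microglia, of which 14 of 25 rose and 1, Axl, fell. The shares of all genes were 18.4% and 22.7%, and the median of the list was 0.60. With library totals alone 6 of the list rose and 3 fell, against 222 and 3674 of 8329 genes. The galectin genes Lgals3 and Lgals1 rose by 1.55 ± 0.26 and 1.53 ± 0.16, the cystatin gene Cst7 by 1.53 ± 0.17 and the osteopontin gene Spp1 by 1.12 ± 0.21. Apoe, Lpl and Itgax, which belong to the same list, were at 0.11, 0.16 and −0.03 and were not called. Selenbp1, which encodes a selenium binding protein and is in no list, rose by 1.62 ± 0.14.

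Actin and tubulin genes rose in 18 of 24 cases with none lower (median 0.82), against 18.4% higher and 22.7% lower among all genes. The actin monomer binding gene Tmsb10 led them at 1.498 ± 0.14. With library totals alone 3 of the 24 rose and 3 fell, against 222 and 3674 of 8329 genes. Against the cells between the limits 3 rose and 2 fell, where 466 and 1229 of 7217 genes did. Of 85 ribosomal protein genes 84 rose, with a median of 0.89, and Rps26 rose most, by 1.43 ± 0.11. With library totals alone the ribosomal median was 0.41, against −0.49 for all genes, and 7 were called. Of 25 lysosomal genes 1, the cathepsin gene Ctsd, was called higher and none lower, both below the shares of all genes. The lysosomal median of 0.10 was −0.38 with library totals alone and −0.081 with DESeq2, where all genes had −0.49 and −0.17. The 13 mitochondrially encoded genes, whose summed share the rule caps, had a median of 0.52 and are given without a test.

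Cell cycle genes rose in 19 of 25 cases and none fell, against 18.4% higher among all genes, with a median of 1.08. Library totals alone gave 12 higher and 1 lower (median 0.58), against 222 and 3674 of 8329 genes (median −0.49). Ube2c, which helps to degrade mitotic cyclins, stood at 51.4 to 136 CPM in Malat1-poor and 5.98 to 36.2 CPM in Malat1-rich cells and rose by 2.23 ± 0.26 (edgeR quasi-likelihood adjusted p = 2.64e-06). Birc5, the survivin gene, rose by 1.89 ± 0.28, the mitotic kinase gene Pbk by 1.95 ± 0.29 and the ribonucleotide reductase gene Rrm2 by 1.72 ± 0.25. The proliferation marker Mki67 (−0.49), the topoisomerase gene Top2a (0.29) and Cenpf (0.19) were not called. Their longest transcripts have 10061, 5221 and 11130 bases. The replication genes Mcm2, Mcm3 and Mcm6, at 3371, 3031 and 4355 bases, were not called either, while the mitotic kinase gene Cdk1, at 4375 bases, was called higher. Against the cells between the limits 3 of 25 rose and 6 fell, where 466 and 1229 of 7217 genes did.

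At least 3 of 13 cell cycle genes were seen in 23.0% and 36.3% of Malat1-poor cells at 1 day, against 4.0% and 20.3% of Malat1-rich cells. With cells thinned to 1500 UMIs these shares were 11.5% and 12.5% against 0.929% and 3.04%. At 1 week the shares were 12.5% and 11.1% against 5.66% and 0, or 0 and 6.25% against 0 and 0 after thinning. At 3 weeks the thinned shares were 7.39% and 4.20% in Malat1-poor and 7.79% and 3.20% in Malat1-rich cells, and in adult cells 0.256% and 0.2995% (unthinned 0.316% and 0.284%), where median depths were 3257 and 1858 UMIs and 3521 of 3799 and 2671 of 3527 cells had enough UMIs to be thinned. With these cells left out of both classes, 7 of the 17 cell cycle genes that could still be tested were higher and none was lower.

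**Figure D3:**
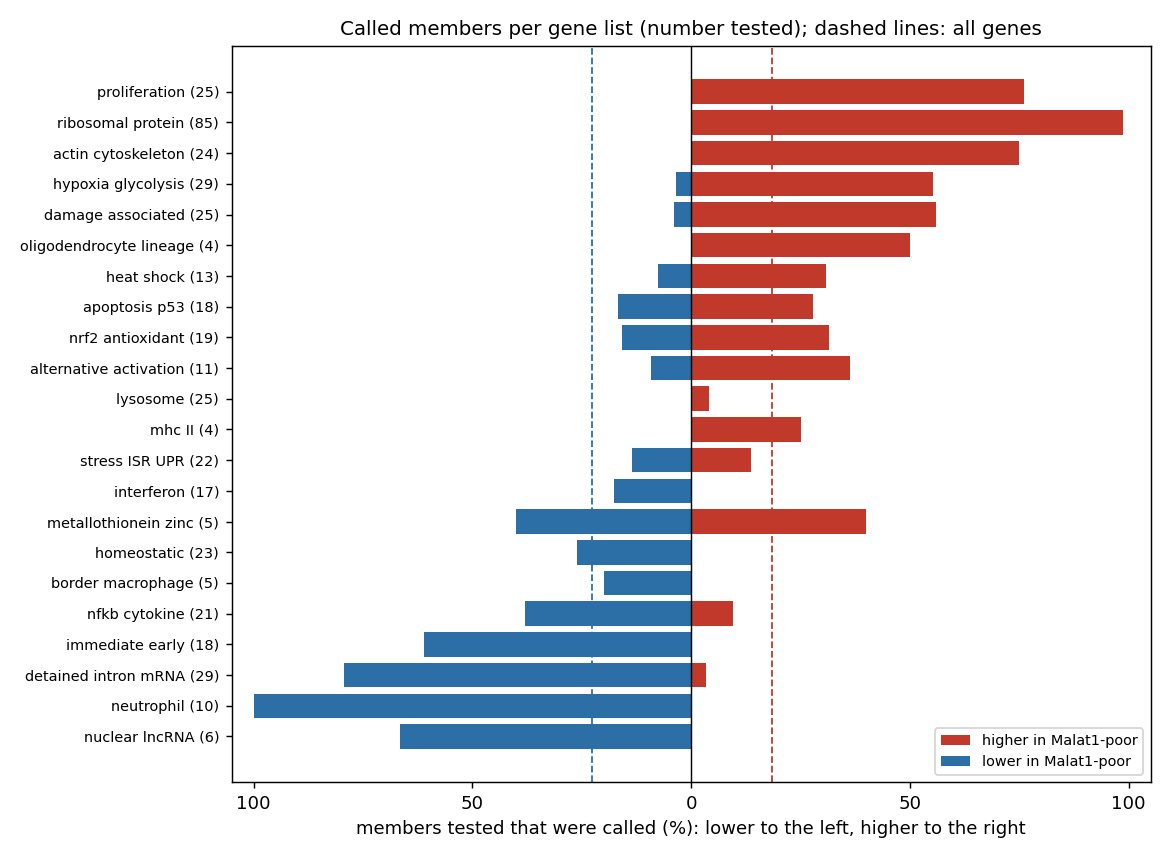
Share of the tested members of each gene list with at least 4 tested, mitochondrial genes left out, that were called lower (blue, to the left) or higher (red, to the right) in Malat1-poor cells, with the number tested in brackets and dashed lines at the share of all 8329 genes (22.7% lower, 18.4% higher). Ribosomal, cell cycle and actin genes extend far to the right, and nuclear noncoding RNAs, neutrophil genes and splicing factor messages far to the left; the S100 limit was applied to Malat1-poor cells only.

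Immediate early genes, which switch on within minutes of a stimulus, fell in 11 of 18 cases and rose in none (median −0.69). The shares of all genes were 22.7% lower and 18.4% higher. Against the cells between the limits 3 of 16 rose and 4 fell, where 466 and 1229 of 7217 genes did. Klf6 was at 58.3 to 77.0 CPM in Malat1-poor and 87.0 to 343 CPM in Malat1-rich cells, and fell by 1.58 (SE 0.18, edgeR quasi-likelihood adjusted p = 2.67e-06). Btg2 fell by 1.65, Dusp1, a phosphatase gene, by 1.71, Jun by 1.33 and Fos by 1.37. Egr2, Atf3 and Maff were at 0.11, 0.10 and 0.08 and were not called.

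Of 21 genes of NF-kappaB signaling and its cytokines 8 fell and 2 rose, against 22.7% and 18.4% of all genes. Library totals alone gave 13 lower and 1 higher, against 3674 and 222 of 8329 genes. Nfkb1, encoding a subunit of the factor, fell by 1.76 (SE 0.20, edgeR quasi-likelihood adjusted p = 1.95e-06), and the cytokine genes Il1b and Tnf by 1.67 and 1.29. The chemokine genes Ccl3 and Cxcl2 rose by 1.11 ± 0.22 and 1.21 ± 0.44, Cxcl2 in 3 of 6 libraries. Of 17 interferon genes 3 were lower, Cxcl10, Stat2 and Oasl2, and none was higher, against 22.7% lower and 18.4% higher among all genes. DESeq2 called 7 lower and library totals alone 12, against 2226 and 3674 of all 8329 genes.

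Of 23 homeostatic microglia genes 6 were lower and none was higher (median −0.42), in this fit a share near the 22.7% of all genes. DESeq2 called 12 lower and library totals alone 14, against 2226 and 3674 of all 8329 genes. With thinned cells 11 of 22 were lower, against 1087 of 4723 genes. Without slice 1 day replicate 2 the lower calls were 13 of 23, against 1938 of 7540. Cx3cr1, the fractalkine receptor gene, stood at 241 to 453 CPM in Malat1-poor and 529 to 1312 CPM in Malat1-rich cells and fell by 1.27 (SE 0.12, edgeR quasi-likelihood adjusted p = 3.16e-07). Tgfbr1, a receptor subunit gene for TGF-beta, fell by 1.66 and Tmem119 by 1.05, while P2ry12 was at −0.52 and not called, with an adjusted p of 0.0436 and a fold change under 1.5.

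Genes of cell death did not move in 1 direction. Of 18 tested, 5 rose and 3 fell, against 18.4% higher and 22.7% lower among all genes. The rises included Bax (0.78) and Bcl2a1b (0.99), which respectively promote and restrain apoptosis. The survival gene Mcl1 fell by 1.20 and the pro-apoptotic genes Bcl2l11 and Bbc3 by 1.22 and 0.86. With library totals alone the median, 0.34, was −0.15, against −0.49 for all genes. None of the 18 rose and 5 fell there, against 222 and 3674 of 8329 genes. Of 22 genes of the integrated stress and unfolded protein responses 3 rose, including Phgdh and Psat1 of serine synthesis, and 3 fell, both below the shares of 18.4% and 22.7% of all genes. With library totals alone none of the 22 rose and 9 fell, set against those same counts of all genes. Of 13 heat shock genes 4 rose, Hspe1 by 1.03 and Hspd1 by 0.85, both chaperonins of mitochondria, and 1 fell, against the same shares of all genes. Their median of 0.39 was −0.10 with library totals alone, where all genes had −0.49, and none of the 13 rose and 2 fell. DESeq2 called 2 higher and 1 lower, and none was called against the cells between the limits. Of the 4 MHC class II genes tested only H2-Ab1 rose, by 1.06 ± 0.15.

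All 10 neutrophil genes tested were lower, with a median of −1.94, where 22.7% of all genes were lower and 18.4% higher. With S100a8 plus S100a9 under 1% in both classes 7 could be tested, 2 were higher and 2 lower, and the median of those 7 was −0.36. Of the other cell types, 1 of 2 monocyte genes, 1 of 5 border macrophage genes and 1 of 2 endothelial genes were lower. Of the oligodendrocyte genes 2 of 4 were higher, and the 1 lymphocyte gene tested was not called. These lists held too few tested genes to set against the shares of all genes. No red cell, platelet, neuron or astrocyte gene passed the filter on low counts. Plac8 of monocytes, F13a1 of border macrophages and the endothelial gene Pecam1 were lower at −2.29, −1.15 and −0.9995. With the S100 limit of 1% in both classes 1 of the 2 monocyte genes could be tested, at −0.022, and was not called. Mbp and Cnp of oligodendrocytes were higher at 1.15 ± 0.43 and 0.68 ± 0.17, each in 4 of 6 libraries and neither called with DESeq2 or with library totals alone, with Mbp at 209 CPM in the Malat1-poor and 23.6 CPM in the Malat1-rich sum of slice 3 weeks replicate 1.

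The class difference varied with transcript length. Among 7875 protein-coding genes without the ribosomal proteins, the quartile with the shortest transcripts (up to 1874 bases) held 39.6% higher and 6.50% lower calls, and the quartile with the longest (from 4358 bases) held 3.56% higher and 50.7% lower calls. The quartiles between held 16.5% and 8.79% higher and 11.1% and 23.2% lower calls. The medians were 0.47, 0.12, −0.15 and −0.65. The order of the medians was the same with library totals alone (−0.026, −0.37, −0.64 and −1.14), with DESeq2, with thinned cells, against the cells between the limits and within each culture time. Calls also differed by average expression: the least expressed quartile of protein-coding genes without ribosomal proteins had 6.81% higher and 31.9% lower calls and the most expressed 36.8% and 7.36%.

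**Figure D4:**
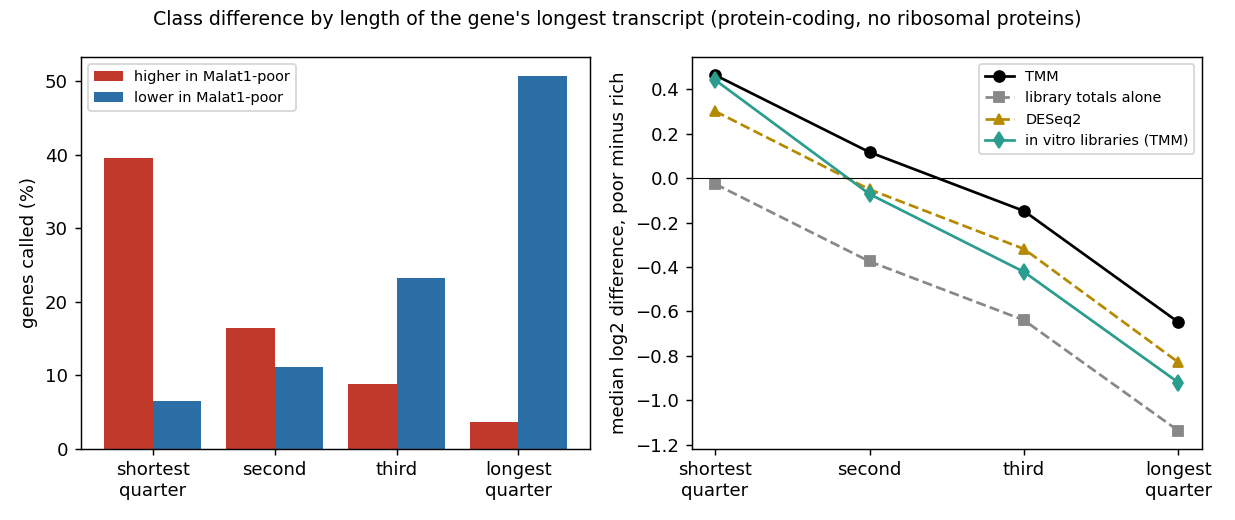
Class difference by the length of each gene's longest annotated transcript, for protein-coding genes without ribosomal proteins in quartiles of length. The left panel gives the percent of genes called in each direction (39.6% higher among the shortest, 50.7% lower among the longest) and the right panel the median log2 difference, which falls with length under TMM, library totals alone, DESeq2 and in the in vitro libraries.

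The class difference was present at each culture time. At 1 day 1521 genes (18.3%) were higher and 1763 (21.2%) lower, at 3 weeks 1604 (19.3%) and 1681 (20.2%), and at 1 week, with 32 and 18 Malat1-poor cells, 551 (6.62%) and 202 (2.43%). Neat1 differed by −3.55 ± 0.17, −3.66 ± 0.54 and −3.69 ± 0.20 at 1 day, 1 week and 3 weeks. Mt1 differed by 2.16 ± 0.16, 2.38 ± 0.22 and 1.58 ± 0.16, and Mt2 by 2.42 ± 0.16, 3.38 ± 0.28 and 1.69 ± 0.16.

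The test of the difference itself, 3 weeks against 1 day, called 329 genes (3.95%) with a higher and 155 (1.86%) with a lower class difference at 3 weeks. Without slice 3 weeks replicate 2 these counts were 57 and 30 and without slice 3 weeks replicate 1 they were 94 and 38. Slice 3 weeks replicate 1 was the only slice library under another study identifier in the labels, shared with adult replicate 1. Of the cell cycle list 15 of 25 had a lower class difference at 3 weeks and none a higher one: 24 were called higher at 1 day and 14 at 3 weeks. With the cells that showed cell cycle genes left out, the counts over all genes were 179 and 103. Of the immediate early list 7 of 18 and of the interferon list 7 of 17 had a higher class difference at 3 weeks, where 14 and 13 had been lower in Malat1-poor cells at 1 day. Of the damage-associated list 10 of 25 had a higher difference at 3 weeks, with 5 higher at 1 day and 20 at 3 weeks.

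Lgals3 differed by 0.40 ± 0.15 at 1 day, below the fold limit, and by 1.73 ± 0.15 at 3 weeks (edgeR quasi-likelihood adjusted p of the difference = 1.37e-06). It stood at 2355 and 1929 CPM in Malat1-poor and 1853 and 1412 CPM in Malat1-rich cells at 1 day, and at 1727 and 3016 CPM and 469 and 1010 CPM at 3 weeks. The chemokine gene Ccl5 turned its direction, with 33.5 and 79.0 CPM in Malat1-poor and 657 and 285 CPM in Malat1-rich cells at 1 day and with 35.7 and 79.7 CPM and 7.93 and 15.7 CPM at 3 weeks.

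**Figure D5:**
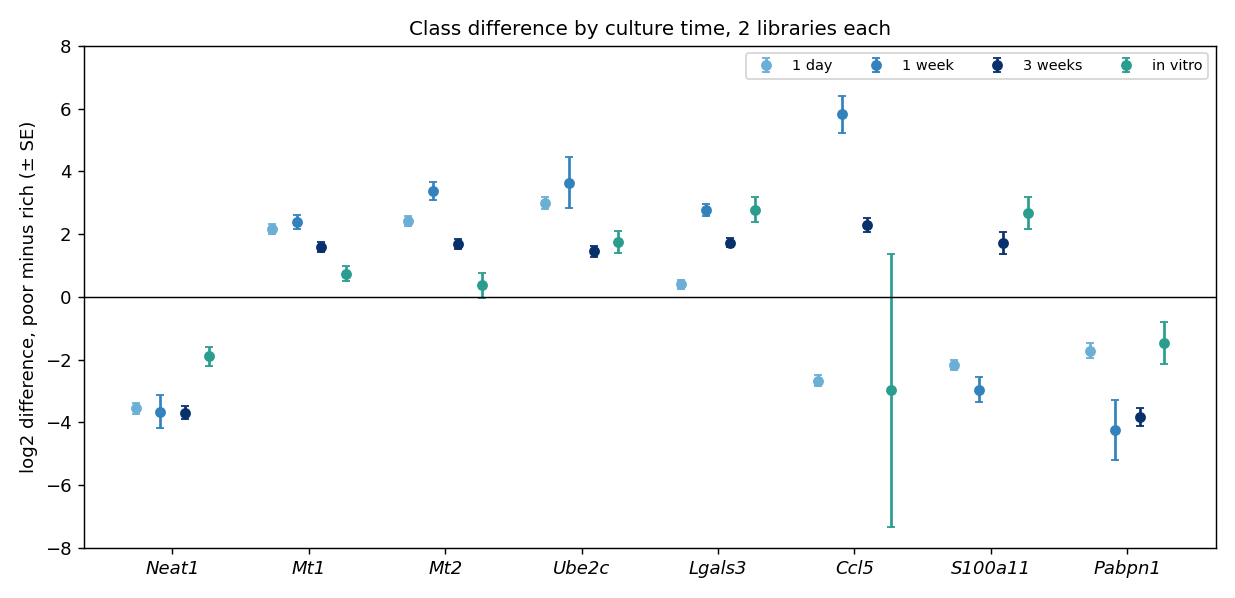
Log2 difference between Malat1-poor and Malat1-rich cells (y axis, ± SE) for 8 genes at each culture time of the slices and in the in vitro libraries, 2 libraries each. Neat1 lies near −3.6 at all 3 slice times, and Ccl5 and S100a11 lie below 0 at 1 day and above 0 at 3 weeks.

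In the in vitro libraries the 51 and 109 cells under the same limits were compared in the same way. Over 8090 genes, 1719 (21.2%) were higher and 1576 (19.5%) lower than in the Malat1-rich cells of those libraries. Neat1 was at 98.8 and 47.4 CPM against 231 and 276 CPM. Mt1 was at 1466 and 1494 CPM against 880 and 898.5 CPM, and Mt2 at 66.8 and 114 CPM against 61.1 and 79.2 CPM. Lgals3 reached 9299 and 10580 CPM against 1018 and 2060 CPM, a log2 difference of 2.77 ± 0.40 (edgeR quasi-likelihood adjusted p = 1.27e-05). Splicing factor messages fell in 19 of 29 cases, ribosomal protein genes rose in 84 of 85, lysosomal genes in 12 of 25 and stress response genes in 10 of 22, while 3 of 18 cell death genes rose and 6 fell (median −0.54). The test of slices against in vitro called 295 genes with a higher and 644 with a lower class difference in slices. The length quartiles had medians of 0.44, −0.071, −0.42 and −0.92.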

How the data were processed

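The deposited tables held raw counts, the number of UMIs per gene and cell, made by the authors from the reads of 10 droplet libraries with Cell Ranger 1.3.0 on mm10, per the submitters' processing notes. They listed 18292 genes and 19637 barcodes, of which 578 were outside the limits on quality. Gene positions and transcript lengths came from GENCODE M21, and 97.0% of the 8329 tested genes had 1 entry. How reads on overlapping or near-identical genes were counted is not given in the sources used here, so values of such genes are uncertain.

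The members, gene lists and tests were chosen with earlier results of these data known. Counts were summed per library and class for libraries with at least 10 cells of each class, without Malat1, S100a8 and S100a9, and fitted with edgeR 4.0.16 (R 4.3.3, quasi-likelihood test, TMM factors, a minimum of 10 counts in its filter) with the library as a term, giving 12 sums and 5 residual degrees of freedom. P-values were adjusted over all tested genes by the Benjamini-Hochberg method, and errors of log2 differences are SE of the fit. Class effects by culture time came from a fit of the same sums with 3 residual degrees of freedom. The in vitro libraries were added in another, with 6. All these fits share information on spread across genes. Levels are CPM over TMM library sizes. Per-cell measures were compared over the 6 libraries by exact permutation with scipy 1.17.1. Doublets were not called. The fitting script was tested on simulated data.

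Named genes were the 12 largest rises and 12 largest falls among called genes of average log2 CPM of at least 5 with 1 direction in every library, up to 4 called members of each of 30 lists (or 2 of the highest expression where none was called), the 3 largest of each direction for the difference between culture times, and Malat1, Neat1, Mt1 and Mt2. A gene chosen with them is not reported here. Gene models were counted and not described. Other list members, mostly ones not called, were named with their values known. Alternatives were DESeq2 1.42.0, library totals alone, no filter, other limits for the classes, thinned or depth-matched cells, and leaving out each library. The S100 limit of 1% in both classes, the removal of cells with cell cycle genes, the comparison with cells between the limits and the in vitro fit were chosen after seeing the data.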

Additional observations from a re-analysis of the deposited data

Results flagged for a closer look

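The class difference at 3 weeks set against that at 1 day called 329 genes with a higher and 155 with a lower difference at 3 weeks, by the test of the difference itself (edgeR quasi-likelihood, Benjamini-Hochberg adjusted). The 3 largest of each direction among well expressed genes are given here. This fit had 3 residual degrees of freedom and 2 libraries per time, so its p-values lean on a spread estimated over all genes. For Ccl5 the difference of the log2 differences was 4.97 ± 0.29 (adjusted p = 1.8e-25), from −2.67 at 1 day to 2.30 at 3 weeks. S100a11, which encodes a calcium binding protein, had 3.90 ± 0.42 (adjusted p = 1.19e-11), and S100a6, of the same family, 3.62 ± 0.34 (adjusted p = 8.67e-14). S100a11 stood at 65.9 and 105.7 CPM in Malat1-poor and 452.5 and 377 CPM in Malat1-rich cells at 1 day, and at 9.73 and 8.14 CPM and 1.63 and 2.97 CPM at 3 weeks. Neutrophil genes moved with it, at 1825 and 2681 summed CPM in Malat1-rich cells at 1 day and 98.2 and 92.3 summed CPM at 3 weeks, and their part in the result was not tested. With cells that showed 2 or more markers of other cells left out, which kept 4 of the 6 slice libraries and dropped slice 1 day replicate 2 and slice 1 week replicate 1, the class difference was 1.24 for S100a11 and 0.83 for S100a6.

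In the other direction Hist1h2ap, a histone gene, had −2.42 ± 0.32 (adjusted p = 1.61e-08), with 33.3 and 2.62 CPM in Malat1-poor and 171 and 21.9 CPM in Malat1-rich cells at 3 weeks. Pabpn1, the nuclear poly(A) binding protein gene, had −2.12 ± 0.44 (adjusted p = 0.000341), from −1.73 at 1 day to −3.84 at 3 weeks, and Tia1, which encodes a protein of stress granules, −1.97 ± 0.37 (adjusted p = 6.82e-05).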

How the results depend on the processing

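Higher and lower calls of the class comparison (1535 and 1888) were 222 and 3674 with library totals alone, 985 and 3395 without the filter, 916 and 2226 with DESeq2, 637 and 1087 with cells thinned to 1500 UMIs, and 466 and 1229 against the cells between the limits. Of the called genes 44.8% were higher in the main fit, 5.70% with library totals alone, 22.5% without the filter and 29.2% with DESeq2. Leaving out each library gave 931 to 1681 higher and 1671 to 2004 lower calls. The difference between culture times (329 and 155) gave 112 and 74 with DESeq2, 179 and 103 without cells that showed cell cycle genes, and 57 to 332 and 30 to 150 when each library was left out. With a replicate block it gave 267 and 133. Same-numbered samples did not deviate together (correlations −0.006, −0.046 and −0.039), which cannot tell whether they shared a preparation.

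Leaving out each library moved the per-cell differences between −512 and −368.9 genes, −86.2 and −76.2 genes after thinning, −853.9 and −216.9 UMIs, 0.0205 and 0.1974 percentage points for mitochondrial, 4.762 and 5.895 for ribosomal, −0.2049 and −0.141 for nuclear noncoding and −0.4195 and −0.374 for splicing factor messages; 5 libraries allow no exact permutation p under 0.0625. With a Malat1 limit of 0.3% these were −396.2 genes, −76.17 genes after thinning, and 5.039, −0.1754 and −0.3795 percentage points for the last 3, which had an adjusted exact permutation p of 0.0547 each.

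The share of Malat1-poor cells moved with a mitochondrial limit of 2% to 24.23%, 29.27%, 21.84% and 22.44% in the 1-day and 3-week libraries and 3.087% and 7.466% in vitro. With at least 1000 genes it was 21.82% and 21.05% at 3 weeks and 0.06064% in adult replicate 1. In slice 1 day replicate 2 it was 27.12% with a limit of 0.1% and 31.16% with thinned cells, and in vitro replicate 2 had 4.996% with a limit of 0.3%. With 10 neighbours the share in slice 1 week replicate 1 was 73.44%.

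Turned directions were seen against the cells between the limits for Birc5 (−0.28), Bbc3 (0.29), Phgdh (−0.059), Ccna2 (−0.22) and mt-Nd4 (−0.0053), with the 2% mitochondrial limit for mt-Nd4 (−0.076), with S100 limits in both classes for Retnlg (0.71, at 1%) and S100a11 (0.17, at 0.2%), and without cells showing markers of other cells for S100a11 (1.24) and S100a6 (0.83). The 0.2% S100 limit and the marker removal left 4 of 6 libraries. The cause was not tested. Over all named genes and alternatives 2276 values kept direction and call, 136 lost the call, 9 gained it and 10 turned. Depth limits the 1-week libraries, where 3 UMIs were 8.97 to 38.5 CPM of a class sum.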

Other observations

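By the span of the gene from start to end, protein-coding genes without ribosomal proteins in the shortest quartile (up to 10102 bases) were higher in 29.9% and lower in 12.2% of cases, and those in the longest (from 49257 bases) in 7.31% and 42.1%.

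Cells between the limits showed at least 3 of 13 cell cycle genes in 51.1% and 55.2% of cases at 1 day and in 42.3% and 21.7% at 3 weeks, or 20.9%, 20.9%, 19.0% and 10.1% after thinning to 1500 UMIs.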
